A study of Rattus norvegicus with 4 samples.

Results

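Polyamine metabolism was examined through 8 rat genes: Odc1, Srm, Sms and Amd1 of synthesis, the antizyme genes Oaz1 and Oaz2, the antizyme inhibitor gene Azin1, and Sat1 of breakdown. Members were the probes whose RefSeq accession belongs to one of these genes, and 7 of the 8 genes had such a probe, 10 probes in all of the 41012 on the array. Oaz2 had no probe named here. All 7 were well above background on each array and were among the 25356 genes tested. RNA came from PC12, a rat cell line established from a tumour of the adrenal medulla (pheochromocytoma). The line is known to have no working MAX, the partner with which MYC proteins bind DNA. The cells had been nucleofected with an empty vector in one group and with a plasmid coding for MAX in the other, and both groups had been selected with E418, as the labels spell it. Each group was 1 line sampled at passages 8 and 13, so it held 2 arrays, and the p-values measure the spread between samples of a line, not between independent transfections; which replicate is which passage is not in the labels.

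Polyamines are small, positively charged molecules that bind RNA and DNA and that growing cells need. Ornithine decarboxylase, the product of Odc1, makes putrescine from ornithine; Amd1 encodes the enzyme that prepares the aminopropyl donor from S-adenosylmethionine, and the synthases encoded by Srm and Sms add that group to form spermidine and then spermine. Antizyme, made when polyamines are plentiful, binds ornithine decarboxylase and hands it to the proteasome, and antizyme inhibitor, an inactive relative of the enzyme, binds antizyme and frees it. Odc1 is a textbook target of MYC with MAX, through CACGTG elements (E-boxes) that lie within the gene.

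No polyamine gene passed the threshold between the MAX vector and the empty vector, and the largest difference was that of Odc1, which was lower with MAX. Of the 7 genes measured, 0 had an adjusted p under 0.05 in limma, where 0.840% of all genes tested passed, and 1, Odc1, had an unadjusted p under 0.05, where 16.1% of all genes did (7.93% higher and 8.21% lower with MAX). The adjusted calls over all genes were 0.576% higher and 0.264% lower. A negative log2 fold change was seen for 5 of the 7, against 53.5% of all genes. All 4 synthesis genes and Azin1 lay lower on each MAX vector array than on either empty vector array, which makes 5 of 7, against 26.0% of all genes. Oaz1 was higher on both, against 24.2% of all genes. Sat1 overlapped between the groups. The median log2 fold change of the 7 genes was -0.17, and that of all genes tested was -0.02. These genes were chosen with earlier results known, and no test was made of them as a set.

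**Figure D1:**
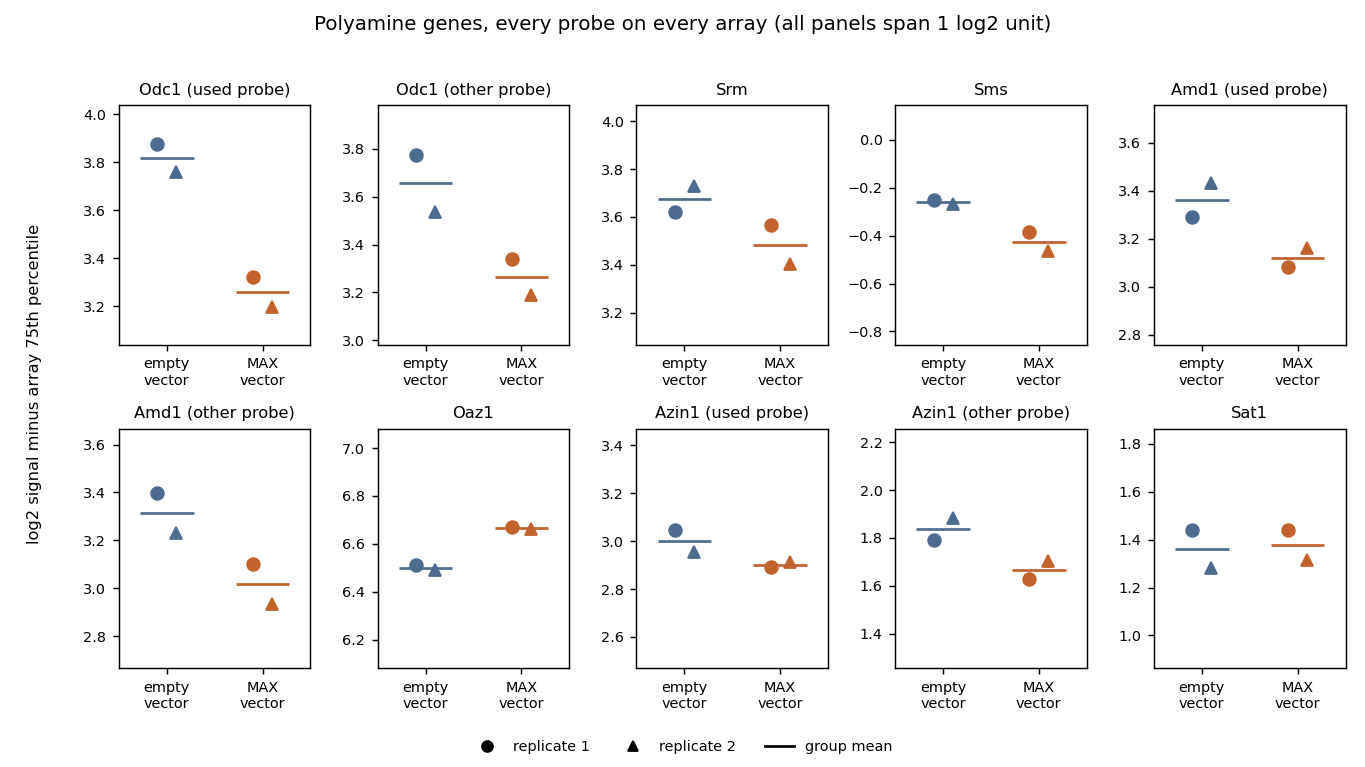
Each panel plots 1 probe of a polyamine gene: points are the log2 signal of an array minus the array's 75th percentile, circles are replicate 1, triangles replicate 2, and lines are group means. The gap between the groups of Odc1's used probe (0.44 between the nearest arrays) exceeds that between its replicates (0.12 in each group), whereas the points of Sat1 overlap.

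Odc1 carried 2 probes. Signals of the brighter probe, which stands for the gene, were 10299.8 and 8282 units for the empty vector and 5895 and 6115 units with MAX. Relative to each array's 75th percentile, these were log2 levels of 3.88 and 3.76 for the empty vector and 3.32 and 3.20 with MAX. Both MAX vector arrays lay below both empty vector arrays, and the nearest arrays of the groups were 0.44 apart, where the replicates were 0.12 apart in each group. The log2 fold change was -0.56 ± 0.10 (± is the SE throughout, from 2 arrays in each group; 95% confidence interval -0.85 to -0.27; limma adjusted p = 0.137). That corresponds to a level 1.47-fold lower with MAX, with an interval from 1.21- to 1.80-fold. Among all genes tested, 6.23% had a lower fold change and 4.27% had a smaller p. The second Odc1 probe gave log2 levels of 3.77 and 3.54 for the empty vector and 3.34 and 3.19 with MAX. Its difference was smaller, -0.39 ± 0.13 (adjusted p = 0.279 in limma over 28564 probes), in the same direction and again without overlap. The nearest arrays of the groups were 0.20 apart by this probe, less than the 0.24 between the empty vector replicates. With background corrected by normexp the used probe had -0.53 and passed (adjusted p = 0.0337), and with a prior spread that follows signal level it had -0.56 and passed (adjusted p = 0.0271). More genes passed in these settings, 799 and 955 over all genes, against 213 as reported. The used probe passed under neither the slide as a block (-0.62, adjusted p = 0.205) nor any of the other settings tried.

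The promoters of Odc1, Srm and Oaz1 are shown because they are the members with a core E-box, or a variant of it, just before the start. Promoter sequences of assembly GRCr8 were available here for 7 of the 8 genes (not Azin1). The 250 bases before the listed start were searched for CACGTG, which reads the same on both strands, and for the variant CACGCG on both strands. CACGTG occurred in 2 of the 7 windows, against 5.59% of 33469 windows of that length, and CACGCG in 1 of the 7, against 7.14%. Srm had CACGTG with its first base 173 bases before the start, Oaz1 had it 234 bases before, and Odc1 had CACGCG 199 bases before. No matches overlapped in these windows, and the elements within the Odc1 gene lie outside them. GGGCGG, the core of a GC box, occurred on one strand or the other in 7 of 7 windows, against 30.5% of all. G and C made up 52.8% to 78.4% of the bases in the 7 windows, and no comparison was made with windows of like base content. TATAAA occurred in those of Amd1 and Oaz1, 29 and 28 bases before the start, against 12.9% of all. The windows are chr6:46058415-46058664 (plus strand) for Odc1, chr5:164308752-164309001 (plus strand) for Srm and chr7:9536991-9537240 (minus strand) for Oaz1, and capitals mark CACGTG or CACGCG:
Odc1: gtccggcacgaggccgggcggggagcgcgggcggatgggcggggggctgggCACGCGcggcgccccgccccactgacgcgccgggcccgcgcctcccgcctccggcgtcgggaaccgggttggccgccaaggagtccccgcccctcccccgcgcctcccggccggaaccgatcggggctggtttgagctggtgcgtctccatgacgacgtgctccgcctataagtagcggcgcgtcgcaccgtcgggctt
Srm: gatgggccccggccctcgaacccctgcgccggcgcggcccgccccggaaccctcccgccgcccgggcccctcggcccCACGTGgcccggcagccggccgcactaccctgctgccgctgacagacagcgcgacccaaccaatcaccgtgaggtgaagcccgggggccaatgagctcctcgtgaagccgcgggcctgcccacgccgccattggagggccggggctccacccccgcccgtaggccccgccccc
Oaz1: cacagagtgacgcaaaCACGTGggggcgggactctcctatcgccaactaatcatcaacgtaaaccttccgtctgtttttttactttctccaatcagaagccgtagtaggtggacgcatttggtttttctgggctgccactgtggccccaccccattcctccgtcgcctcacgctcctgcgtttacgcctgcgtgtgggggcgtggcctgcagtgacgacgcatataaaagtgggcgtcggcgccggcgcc
A match is a stretch of letters, not a measured site. Srm and Oaz1, the members with CACGTG here, lay on opposite sides of 0, but the intervals of both (-0.50 to 0.11 and -0.07 to 0.40) include 0. A link between a match and a difference was not tested.

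The other synthesis genes differed less than Odc1. Amd1, the gene of S-adenosylmethionine decarboxylase, had log2 levels of 3.29 and 3.43 for the empty vector and 3.08 and 3.16 with MAX by its brighter probe. Both MAX vector arrays were the lower ones, by 0.13 between the nearest arrays, which is less than the 0.14 between the empty vector replicates. Its log2 fold change was -0.24 ± 0.10 (interval -0.52 to 0.04; limma adjusted p = 0.368). The second Amd1 probe read 3.40 and 3.23 against 3.10 and 2.93, also without overlap, and gave -0.30 ± 0.12. Srm, the spermidine synthase gene, had 3.62 and 3.73 for the empty vector and 3.57 and 3.40 with MAX. Its groups were 0.06 apart, less than the 0.11 and 0.16 between replicates, and the fold change was -0.19 ± 0.11 (interval -0.50 to 0.11; adjusted p = 0.471). Sms, the spermine synthase gene, had -0.25 and -0.27 for the empty vector and -0.39 and -0.46 with MAX. Its gap of 0.12 between groups exceeded the 0.02 and 0.08 between replicates, and its fold change was -0.17 ± 0.09 (interval -0.41 to 0.08; adjusted p = 0.45). All 3 intervals include 0.

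Among the regulators of ornithine decarboxylase, Oaz1, the antizyme gene, had log2 levels of 6.51 and 6.49 for the empty vector and 6.67 and 6.66 with MAX. Its replicates were 0.02 and 0.01 apart and the groups 0.15, and no spot on the arrays was saturated. The fold change was 0.17 ± 0.08 (interval -0.07 to 0.40; limma adjusted p = 0.432). The SE rests largely on the spread that limma fitted over all genes (a prior SD of 0.119), which is wider than Oaz1's own SD of 0.02 and 0.01. Azin1, the antizyme inhibitor gene, had 3.05 and 2.95 for the empty vector and 2.89 and 2.91 with MAX. Its groups were 0.04 apart, less than the empty vector replicates (0.09), and the fold change was -0.10 ± 0.09 (interval -0.35 to 0.15; adjusted p = 0.64). A dimmer Azin1 probe read 1.79 and 1.88 against 1.63 and 1.70 and gave -0.17 ± 0.09. Sat1, whose product acetylates spermidine and spermine for export or oxidation, had 1.44 and 1.28 for the empty vector and 1.44 and 1.31 with MAX. Its groups overlapped fully, with a fold change of 0.02 ± 0.11 (interval -0.29 to 0.32; adjusted p = 0.955), and the sign turned when the slide was a block (-0.05).

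**Figure D2:**
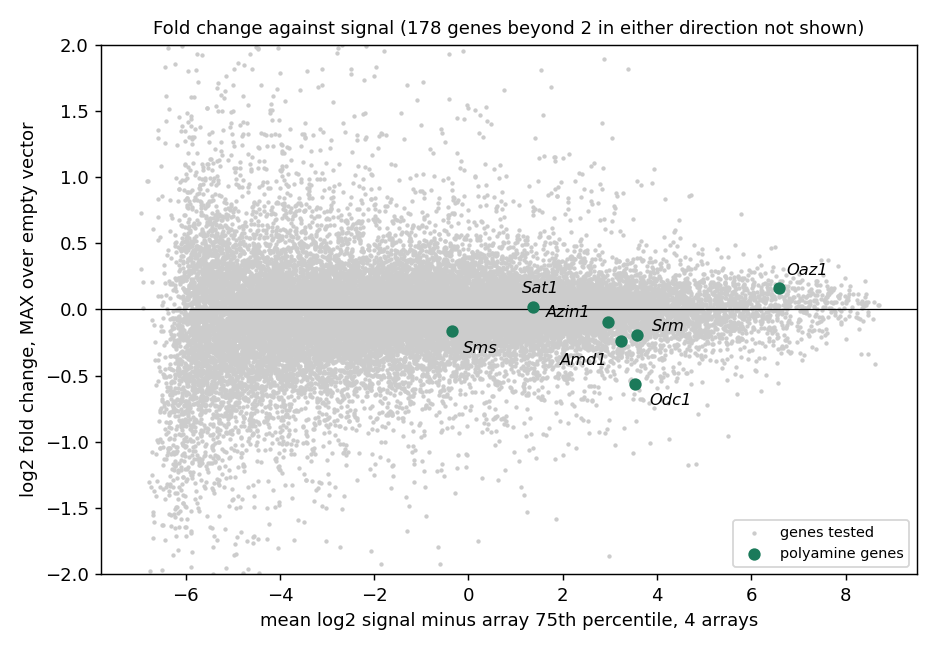
Each grey point is a gene tested, plotted by its mean log2 signal minus the array's 75th percentile over 4 arrays (x axis) and its log2 fold change with MAX (y axis, cropped at 2 in either direction, which hides 178 genes); green points are the polyamine genes. Odc1 lies at -0.56 below the other members, which lie between -0.24 and 0.17.

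**Figure D3:**
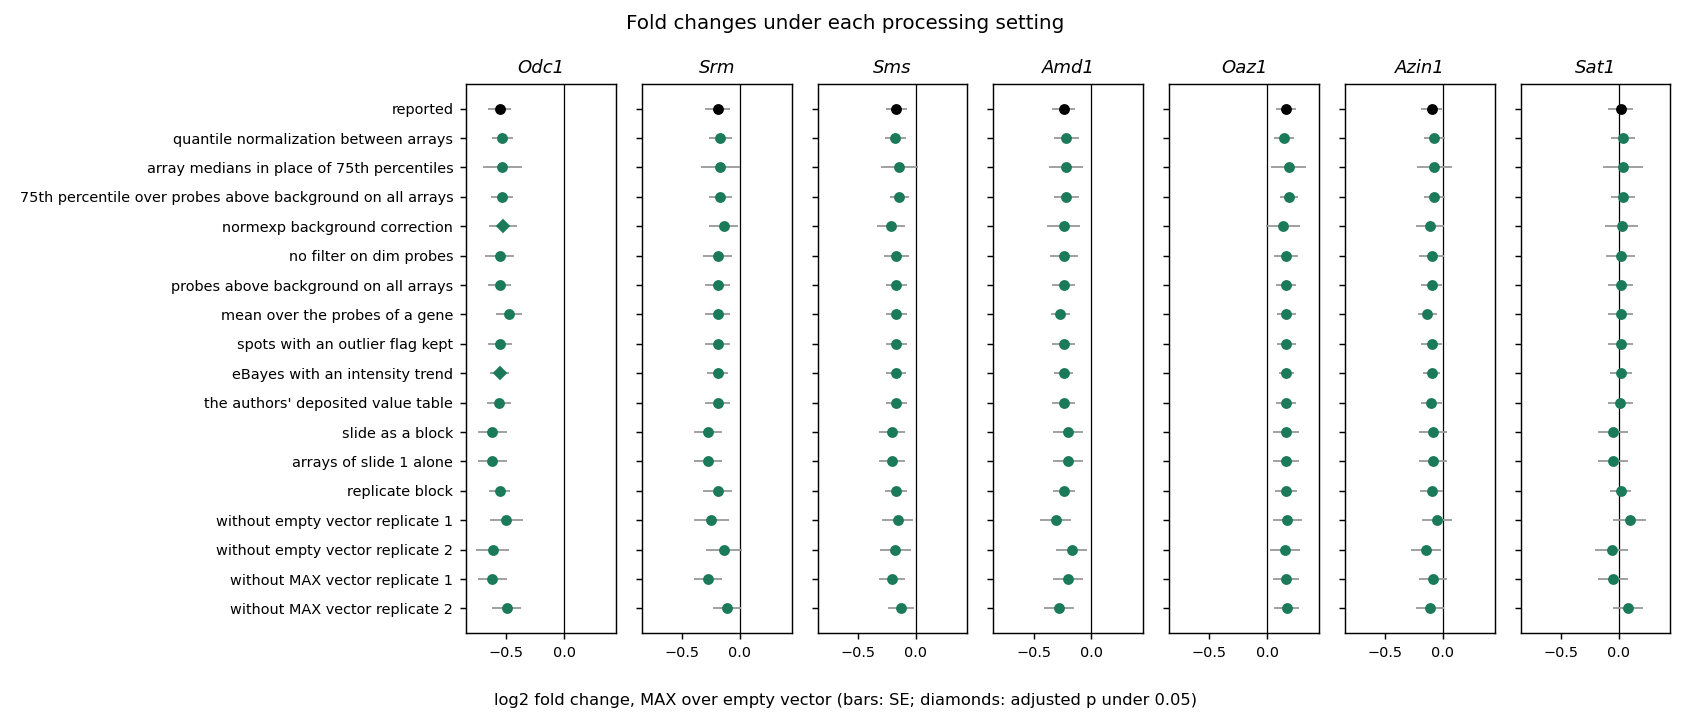
Each panel plots a polyamine gene's log2 fold change (x axis; bars are the SE) as reported and under 17 alternative settings (rows); diamonds passed an adjusted p of 0.05. Odc1, Srm, Sms, Amd1 and Azin1 stayed below 0 and Oaz1 above 0 in all 17, Sat1 crossed 0, and the only diamonds are Odc1 with normexp and with an intensity trend. Over all genes 799 and 955 passed in those settings, against 213 as reported.

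Genes around the core pathway were described from a list of 37, of which 22 had a probe named here and 19 were tested. Of these 19, 1 was higher, 0 were lower and 18 did not pass in limma, against 0.840% of all genes called in either direction. At an unadjusted p under 0.05 there were 3 higher and 2 lower of the 19, where 7.93% of all genes were higher and 8.21% lower. The median log2 fold change was 0.10. By role, 1 of 7 genes of arginine and ornithine supply passed in limma, against 0 of 7 of the methionine cycle and methylthioadenosine salvage, 0 of 2 of hypusination and 0 of 3 of transport. These counts at an unadjusted p under 0.05 were 3, 0, 0 and 2, against 16.1% of all genes. Oaz3 and the genes of acetylation and oxidation on the list (Sat2, Satl1, Paox and Smox) had no probe named here.

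The gene that passed was Ass1, which encodes argininosuccinate synthase, the enzyme that turns citrulline toward arginine. Its signals were dim, 71.0 and 75.1 units for the empty vector and 274.9 and 282.1 units with MAX. Relative to each array's 75th percentile, its log2 levels were -3.30 and -3.02 for the empty vector and -1.10 and -1.24 with MAX. Both MAX vector arrays were far above both empty vector arrays, 1.78 apart at the nearest, where replicates were 0.28 and 0.14 apart. Ass1 rose 3.98-fold (1.99 ± 0.14 on the log2 scale; interval 1.61 to 2.38; limma adjusted p = 0.035). The call was lost without each of the 4 arrays in turn: the adjusted p was 0.294 and 0.252 without empty vector replicates 1 and 2, and 0.0966 and 0.0575 without MAX vector replicates 1 and 2, with log2 fold changes of 1.85, 2.13, 1.92 and 2.06. It was lost too when slide was a block (1.92, adjusted p = 0.0966) and with no filter on dim probes (adjusted p = 0.147). With the replicate block Ass1 had 1.99 and did not pass (limma adjusted p = 0.122), and with normexp it had a smaller value, 1.35, and passed.

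Other genes of arginine and ornithine supply are named here after their values were seen. Asl, which encodes argininosuccinate lyase, the enzyme that follows, had 0.73 and 0.76 for the empty vector and 1.14 and 1.01 with MAX. Its groups did not overlap, and the log2 fold change was 0.33 ± 0.10 (limma adjusted p = 0.248). Arg2, the gene of the mitochondrial arginase that releases ornithine from arginine, had 1.15 and 1.32 for the empty vector and 0.59 and 0.65 with MAX. Its fold change was -0.62 ± 0.11 (adjusted p = 0.125), about the size of that of Odc1, and like Odc1 it passed with normexp (-0.56, adjusted p = 0.0447) and with an intensity trend (adjusted p = 0.0271). Over all genes 799 and 955 passed in those settings, against 213 as reported. Oat, the gene of ornithine aminotransferase, had 5.44 and 5.40 against 5.23 and 5.19, a difference of -0.21 ± 0.09 (adjusted p = 0.361). Arg1, the gene of the cytosolic arginase, had 0.10 ± 0.10 (adjusted p = 0.664), so the arginase genes lay on opposite sides of 0, and neither passed.

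**Figure D4:**
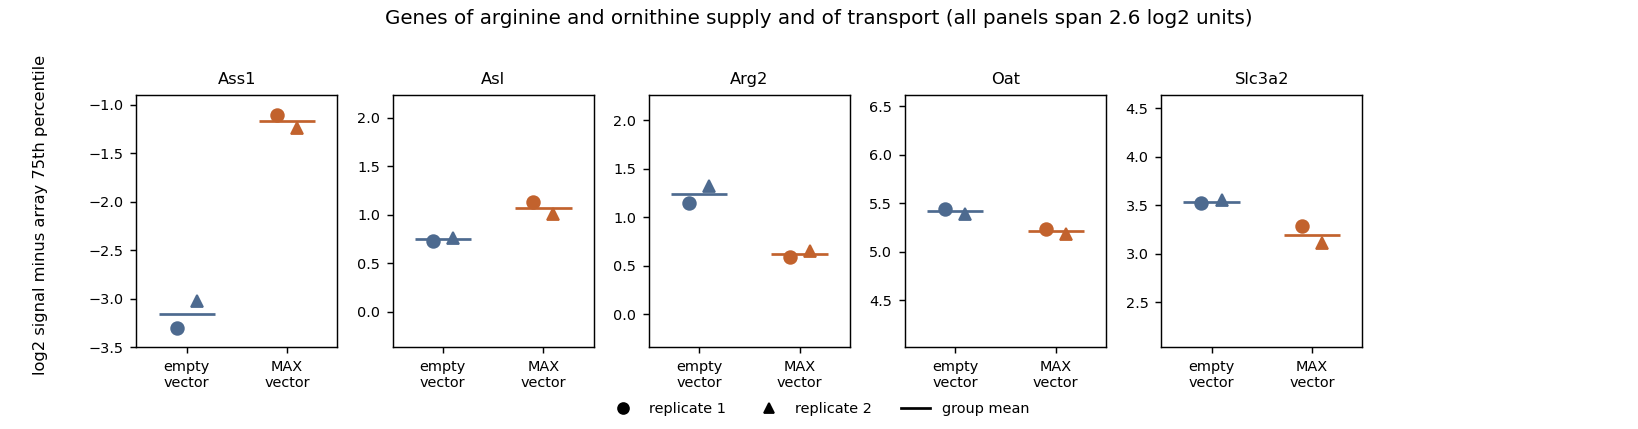
Points are the log2 signal of an array minus its 75th percentile for genes of arginine and ornithine supply (Ass1, Asl, Arg2, Oat) and for Slc3a2 of transport; circles are replicate 1, triangles replicate 2, lines group means, and each panel spans 2.6 log2 units. The groups are separate in all 5 panels, and Ass1 has the widest gap (1.78). All but Ass1 were picked after their values were seen, so the separation of these panels is no result. Of the 19 pathway genes tested, 5 were lower and 6 higher with MAX without overlap. Among all genes tested these shares were 26.0% and 24.2%.

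In the remaining roles no gene passed. Mat1a, one of the genes of S-adenosylmethionine synthesis, was dim and had -3.67 and -3.57 for the empty vector and -4.37 and -3.86 with MAX (log2 fold change -0.49 ± 0.20, limma adjusted p = 0.355); a second probe gave -0.34 with overlap. Without MAX vector replicate 1, which lay on its own slide, Mat1a had -0.24, without MAX vector replicate 2 it had -0.75, and with normexp -0.19, none past the threshold. Eif5a, which encodes the translation factor that carries hypusine, a residue made from spermidine, had 6.05 and 6.15 against 6.09 and 6.01, with overlap (-0.05 ± 0.09, adjusted p = 0.832). Slc3a2, the heavy chain shared by several amino acid transporters, had 3.52 and 3.56 against 3.28 and 3.11 (-0.34 ± 0.10, adjusted p = 0.262).

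**Figure D5:**
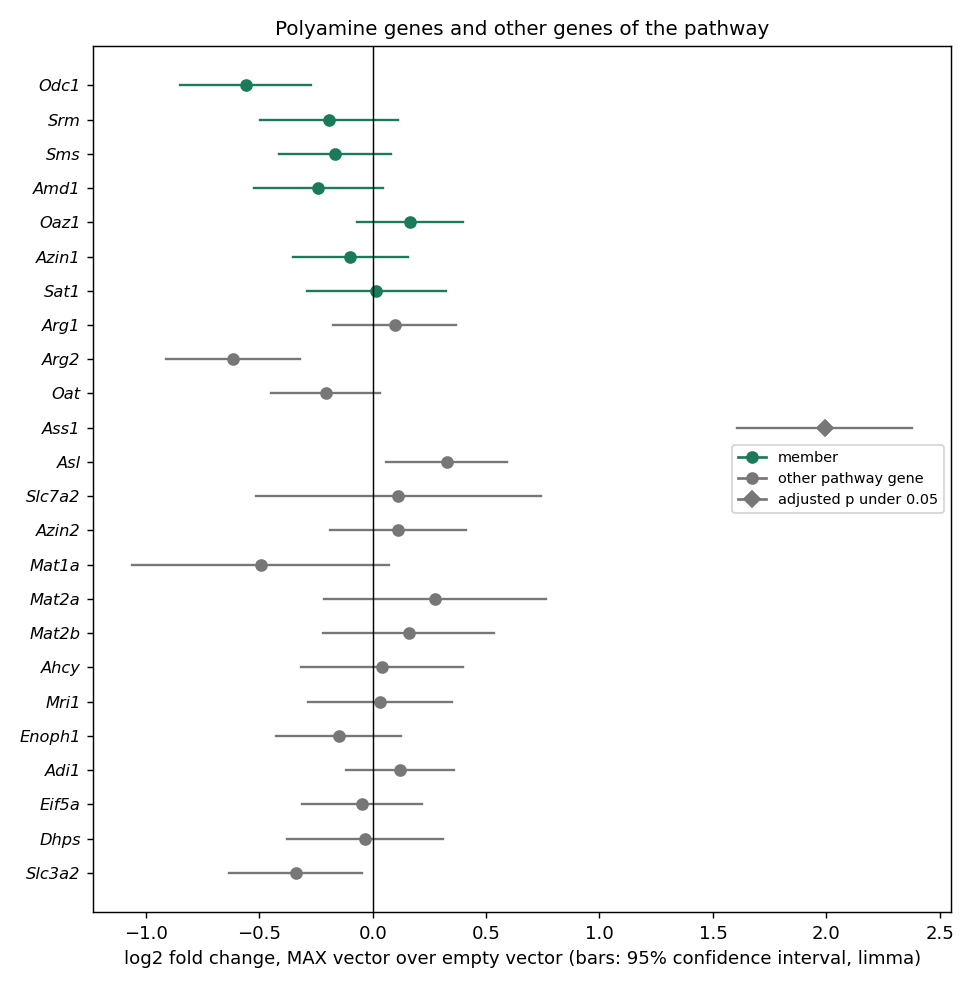
Points are log2 fold changes of MAX vector over empty vector and bars their 95% confidence intervals from limma, for the polyamine genes (green) and the other pathway genes tested (grey; of the transport genes only Slc3a2 is drawn). Of the polyamine genes only the interval of Odc1 (-0.85 to -0.27) excludes 0 before adjustment, and the diamond, Ass1, is the gene with an adjusted p under 0.05.

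The genes whose pattern over the 4 arrays was most like that of Odc1, by the root mean square difference after each gene was centred on its own mean, included Nes (0.014) and Pmp22 (0.017), out of 6315 other genes with a symbol. Nes, which encodes the intermediate filament protein nestin, had 2.43 and 2.30 for the empty vector and 1.85 and 1.76 with MAX. With 4 points a close match of this kind is a description of these arrays.

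On each array 64.4% to 71.5% of the probes exceeded background. The Max probe was well above background on 0 of the 4 arrays, so it does not check the labels, and where it lies relative to the plasmid's insert was not analysed here. Of 11 chromaffin marker genes with a probe, 8 were well above background on all arrays, and the unscaled signals of the 11 summed to 12434 and 14178 units for the empty vector and 6881 and 7687 units with MAX. These 11 did not move one way: in limma Th, the gene of tyrosine hydroxylase, rose (2.15 ± 0.11, adjusted p = 0.0203), Ddc, the gene of aromatic amino acid decarboxylase, fell (-1.08 ± 0.08, adjusted p = 0.0391), and the others did not pass. All 5 fibroblast markers with a probe were well above background on all arrays, with sums of 88715 and 92025 against 81407 and 97885 units. Of the markers with a probe for endothelial, macrophage and adrenocortical cells, 1 of 2, 2 of 4 and 2 of 4 were, with sums of 17.1 to 18.5 against 45 to 73.4, 449.5 to 452.3 against 392.9 to 787.2 and 103.9 to 109 against 107.9 to 149.1 units. Pecam1, Aif1, Cyp11b1 and Cyp21a1, which mark these 3 cell types, were well above background on 0 arrays. The chromaffin and endothelial sums did not overlap between the groups, but each rested mostly on a single gene. Ddc made up most of the chromaffin sum on each array, and its log2 levels fell from 4.03 and 4.04 to 2.95 and 2.94. Th, which rose, was much dimmer (-1.94 and -2.10, then 0.17 and 0.08). Kdr was the only endothelial marker well above background. Neither sum is therefore a measure of cell content, and their part in the polyamine results was not tested. On each array the fibroblast sum was above the chromaffin sum, and the identity of the cells was not tested here. MAX vector replicate 1 was on a slide of its own, and without it Odc1 had -0.62.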

How the data were processed

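Total RNA of 4 PC12 samples was read on Agilent rat arrays with a single dye, Cy3. Per the file headers, the deposited spot intensity came from Feature Extraction 10.7.3.1 (10.7 in the submitters' processing notes), with annotation of build rn4, background-subtracted, with no scaling from array to array. A table of log2 values was deposited as well; differences between its columns matched the values used here (Pearson r = 1), while the baseline on which each probe is centred is not given in the sources used here.

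Spots with an outlier flag were dropped, log2 processed signals averaged per probe and each array's 75th percentile subtracted. Probes were kept that exceeded background well on 2 or more of 4 arrays, with the brightest probe per gene (25356 genes). The test was limma's (version 3.58.1, R 4.3.3, lmFit and then eBayes, 3.94 degrees of freedom), with Benjamini-Hochberg adjustment over all genes and a threshold of 0.05. The code was also run on simulated data whose gene means and spread were taken from this fit. With 4 arrays, their number limits the precision. Symbols came from RefSeq accessions matched to assembly GRCr8 (10768 of 41012 probes); probe sequences were not used here, so cross-hybridisation to gene copies was not examined. Named pathway genes were those that passed and the largest difference in each role; others were picked once values were known, and some that the rule names are not reported here. The members and lists were chosen with earlier results of these data known. Alternatives covered scaling, background, filters, probes, spread, slide, replicate block and leaving out each array. The normexp setting used median spot signals, since the files hold no mean signals. It added an offset of 50 units to each corrected signal, which by arithmetic brings fold changes of dim probes nearer 0. The part of this offset in the changed values was not tested.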

Additional observations from a re-analysis of the deposited data

How the results depend on the processing

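The number of genes called over all genes, 213 as reported, was 541 with array medians as the scale, 799 with normexp, 515 with probes well above background on all arrays, 955 with an intensity trend, 0 with no filter on dim probes (limma, with 4033 under an unadjusted p of 0.05), 8 for the slide as a block or slide 1 alone, and 0 to 144 with 1 array left out. With the replicate block it was 0 (limma, 3885 at an unadjusted p under 0.05), with 0 polyamine members and 0 pathway genes called (Ass1 had an adjusted p of 0.122). The correlation of same-numbered arrays' deviations was -0.02. That correlation cannot decide on pairing, since MAX vector replicate 1 was on a slide of its own. Polyamine members called, 0 as reported, were 1 with normexp and 1 with an intensity trend, Odc1 in each case (-0.53 and -0.56), and 0 whichever array was left out, with Odc1 between -0.62 and -0.50. Pathway genes called, 1 as reported, were 3 with normexp, 2 with an intensity trend, and 0 with no filter, the slide as a block, slide 1 alone, or any 1 array left out. Sat1 reversed to -0.048 for the slide as a block or slide 1 alone, and lay between -0.062 and 0.095 with 1 array left out, where it was -0.062 without empty vector replicate 2 and -0.048 without MAX vector replicate 1. Eif5a lay between -0.097 and 0.0017 with 1 array left out and was above 0 without empty vector replicate 2. The cause of these changes was not tested. The slide block, slide 1 alone and leaving out MAX vector replicate 1 rest on the same 3 arrays and give the same values. With 1 array left out, the lone array of its group is assumed to vary like the other group. Scan time as a block was not run, since each slide was 1 scan.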
